A study of Mus musculus with 4 samples.

Results

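Glycolysis and hypoxia response genes were examined in Dalton's lymphoma ascites (DLA) cells, a mouse tumour kept by transplantation from animal to animal, whose cells float singly in ascites fluid. The genes were chosen by symbol, as 37 genes of sugar uptake, glycolysis, lactate handling and the response to low oxygen. Probe sets were found for 35 of them, 84 probe sets in all of the 23410 that the platform annotation pairs with a gene, while Gpi1 and Eno1 were not analysed here. The irradiated group was 2 arrays of DLA cells from Swiss albino male mice given 2 Gy of electrons to the whole body on day 8 after transplantation. The control group was 2 arrays of DLA cells from mice of the same strain that carried the same tumour and had no treatment. Cells of both groups were harvested from the peritoneal cavity at 48 h after the exposure, and the mice were 4 to 5 months old. The whole animal was irradiated, so the host was exposed with the tumour cells, and the harvested fluid was not sorted, per the labels. The labels call the arrays biological replicates 1 and 2 of each group, and the sources used here do not say whether each was 1 mouse or a pool.

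Glycolysis turns glucose into pyruvate in the cytosol and yields energy without oxygen. Many tumours run it at a high rate and release the product as lactate. When oxygen is short, the prolyl hydroxylases that mark the HIF alpha subunits for destruction slow down, and the stabilised HIF proteins pair with ARNT and bind a short DNA element. Their targets include glucose transporters, most glycolytic enzymes, the kinase PDK1 that keeps pyruvate out of the mitochondria, and genes of pH control, mitophagy and collagen modification. Ascites fluid is known as a poorly oxygenated place in advanced tumours.

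The DNA element has the core letters ACGTG or GCGTG. Both were searched on both strands in RefSeq promoter windows of assembly GRCm38.p6, each running from 250 bases before to 50 bases after a gene's start, and 32 of the 37 genes had 1 or more windows. The letters CACGTG, the E-box, hold ACGTG on both strands and were counted with it. ACGTG was found in a window of 23 of the 32 genes, 71.9%, against 21.8% of all 27025 genes in the table. GCGTG was found for 21 of the 32, 65.6%, against 35.2% of all genes, and either for 29 of the 32, 90.6%, against 46.7%. By window, ACGTG was found in 57.8% of the 45 member windows against 19.6% of all 32851, and GCGTG in 57.8% against 32.4%. Members were not matched to other genes for promoter base content. A match is a run of letters and not a measured binding site. The 4 windows below belong to the pair of genes with the smallest p (P4ha1 and Aldoc) and to a pair on which the 2 irradiated arrays lay on opposite sides of the controls (Slc16a3 and Car9). Aldoc has 2 windows in the table, and the one with more matches is printed, with 3, while the other has 1 GCGTG and 0 ACGTG. Capitals mark the matches on either strand (CACGT and CACGC are the same cores read on the other strand). Both pairs hold them.
P4ha1, chr10:59323046-59323345, plus strand: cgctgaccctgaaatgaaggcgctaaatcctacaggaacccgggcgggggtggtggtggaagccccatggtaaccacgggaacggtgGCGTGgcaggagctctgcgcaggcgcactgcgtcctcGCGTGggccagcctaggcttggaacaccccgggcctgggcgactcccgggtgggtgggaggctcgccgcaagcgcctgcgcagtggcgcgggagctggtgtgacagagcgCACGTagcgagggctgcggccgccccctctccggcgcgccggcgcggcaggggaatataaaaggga
Aldoc, chr11:78322823-78323122, plus strand: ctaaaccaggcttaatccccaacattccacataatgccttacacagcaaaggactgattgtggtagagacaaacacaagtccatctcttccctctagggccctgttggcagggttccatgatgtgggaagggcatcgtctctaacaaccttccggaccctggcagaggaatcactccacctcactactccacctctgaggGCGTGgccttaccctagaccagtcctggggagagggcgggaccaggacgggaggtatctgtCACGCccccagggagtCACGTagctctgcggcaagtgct
Slc16a3, chr11:120948817-120949116, plus strand: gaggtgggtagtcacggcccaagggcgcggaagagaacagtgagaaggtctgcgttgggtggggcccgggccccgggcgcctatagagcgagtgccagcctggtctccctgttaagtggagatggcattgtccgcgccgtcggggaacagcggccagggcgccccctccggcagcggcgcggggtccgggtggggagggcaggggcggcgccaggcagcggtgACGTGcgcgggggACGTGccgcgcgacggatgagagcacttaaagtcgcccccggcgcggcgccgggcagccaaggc
Car9, chr4:43506776-43507075, plus strand: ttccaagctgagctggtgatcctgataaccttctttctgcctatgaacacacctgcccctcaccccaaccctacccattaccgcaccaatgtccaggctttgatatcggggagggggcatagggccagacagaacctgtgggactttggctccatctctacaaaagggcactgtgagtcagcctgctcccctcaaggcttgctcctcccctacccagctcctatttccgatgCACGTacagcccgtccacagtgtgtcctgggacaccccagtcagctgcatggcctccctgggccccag

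Values are log2 probe set intensities, on which 1 unit is a doubling. Differences are taken between arrays for the same probe set. Probe sets differ in affinity, so a level set beside the median of all genes is a description of signal and does not rank genes by abundance. Where a gene had several probe sets, the text gives the brightest that lists that gene alone unless it says otherwise. The array medians over annotated probe sets lay between 6.71 and 6.75. No member probe set passed limma at an adjusted p of 0.05, the smallest being 0.453. Over all 23410 probe sets 6 passed, 0.0256%. At an unadjusted p under 0.05 in limma, 0 of the 35 member genes were higher and 2 were lower in irradiated cells (background 4.87% and 4.77% of 21335 genes), which is close to the background. The median log2 difference of the member probe sets, −0.07 with all arrays, depended on the irradiated array kept. Dropping irradiated replicate 1 took this median to −0.2275, while dropping irradiated replicate 2 took it to −0.0275. With control replicate 1 dropped it stood at −0.1, and with control replicate 2 dropped at −0.055. A fit that leaves 1 array in a group takes its spread from the other group's pair alone. The number of probe sets passing an unadjusted p there depends on how close that pair lay. With 2 arrays against 2, an exact two-sided permutation test of a single gene cannot give a p below 0.333, and the number of arrays limits the precision throughout.

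The 35 genes did not shift as a block. By the mean of the arrays 11 were higher in irradiated cells, where the background was 44.4% of all genes, and 24 were lower, where it was 54.5%, and the median log2 difference was −0.11, against −0.025 over all genes. With Hk1 read from the probe set that lists its RefSeq transcripts, 12 were higher and 23 lower, and the median was −0.065. Over the 84 member probe sets the median was −0.07. The irradiated and control arrays did not overlap for 4 genes that were higher, where the background was 17.8%, and for 11 that were lower, where it was 23.5%. Of these 11, Hk1 drops out when it is read from the probe set that lists its RefSeq transcripts, which leaves 10. Some of them rested on near ties on irradiated replicate 1, such as Ldha at 13.30 against 13.31 on the nearer control and Gapdh at 14.41 against 14.42. Among the 4 higher, Pkm rested on 11.96 on irradiated replicate 2 against 11.95 on the nearer control. In bulk RNA, fewer cells of a type and less RNA per cell cannot be told apart.

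The 2 irradiated arrays departed from the controls in different ways. Irradiated replicate 1 was the higher of the irradiated arrays for 29 of the 35 genes, 82.9%, against 52.1% of all genes. Among genes at or above the median level, the median difference between irradiated replicates 1 and 2 was 0.04, against 0.36 for the 33 members there. Those genes were still dimmer than the members, with a median level of 8.72 against 10.57. On irradiated replicate 2, 24 genes lay below both controls, 68.6% against a background of 45.5%, and 6 lay above both, 17.1% against 37.2%. On irradiated replicate 1, 15 lay above both controls, 42.9% against 33.5%, and 13 below both, 37.1% against 40.4%. The rest lay within the controls, 7 on irradiated replicate 1 (background 26.1%) and 5 on irradiated replicate 2 (17.3%). Relative to the control mean, the median of the 35 genes was 0.025 on irradiated replicate 1 and −0.26 on irradiated replicate 2. Leaving out irradiated replicate 1 therefore gave 24 genes lower without overlap and 6 higher, and leaving out irradiated replicate 2 gave 13 lower and 15 higher. Without control replicate 1 the counts were 13 lower and 7 higher, and without control replicate 2 they were 14 lower and 6 higher. The shares of all genes without a control array were not counted, and with 1 control array an overlap is rarer by construction. With Hk1 read from the probe set that lists its RefSeq transcripts, 23 genes lay below both controls on irradiated replicate 2, 65.7%. The median of the 35 genes on that array was then −0.23. Each share rests on a single irradiated array, and there is no replicate of either to test it against.

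**Figure D1:**
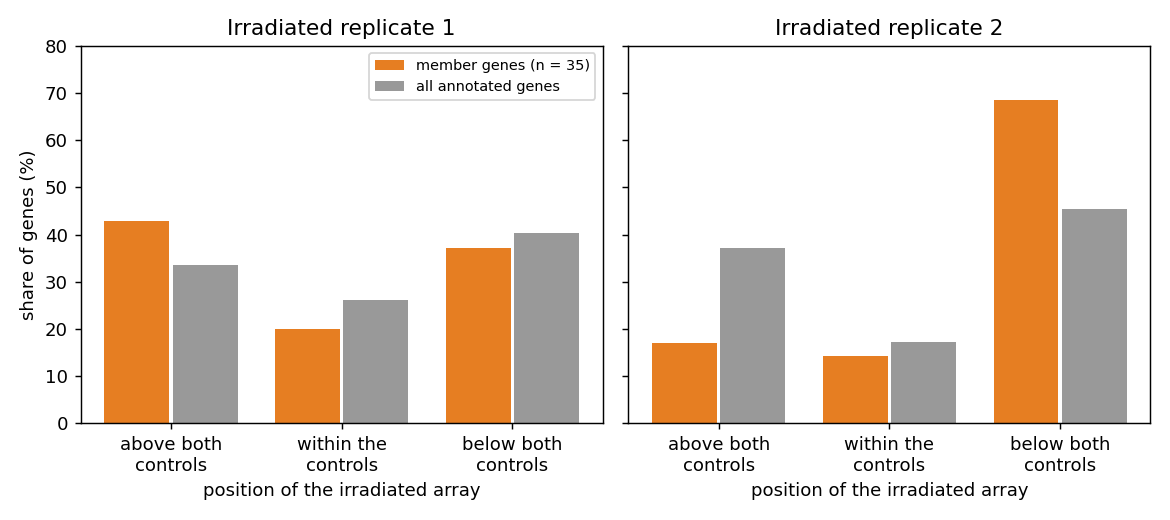
Share of genes (percent, vertical axis) that lay above both, within or below both control arrays on irradiated replicate 1 (left) and irradiated replicate 2 (right), for the 35 member genes (orange) and all 21335 annotated genes (grey). On irradiated replicate 2 the bar below both controls reaches 68.6% of members and 45.5% of all genes, while on irradiated replicate 1 the same bars reach 37.1% and 40.4%.

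The spread had the same shape gene by gene. The difference between irradiated replicates 1 and 2 ran from −0.44 to 1.16 over the 35 genes with an SD of 0.359, against −0.16 to 0.31 and an SD of 0.117 between control replicates 1 and 2. Over all genes these SDs were 0.397 and 0.167. The irradiated arrays lay 0.5 or more apart for 10 members, 28.6% against a background of 13.7%, and all 10 were higher on irradiated replicate 1. The control arrays lay that far apart for 0 members (background 1.09%). On irradiated replicate 2, 11 members were 0.5 or more below the control mean (31.4% against 6.02%), and on irradiated replicate 1 only Aldoc was (2.86% against 1.78%). Among genes at or above the median level of 6.64, a range that held 33 of the members, the background for irradiated replicate 2 was 7.1% and the members' share was 33.3%.

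**Figure D2:**
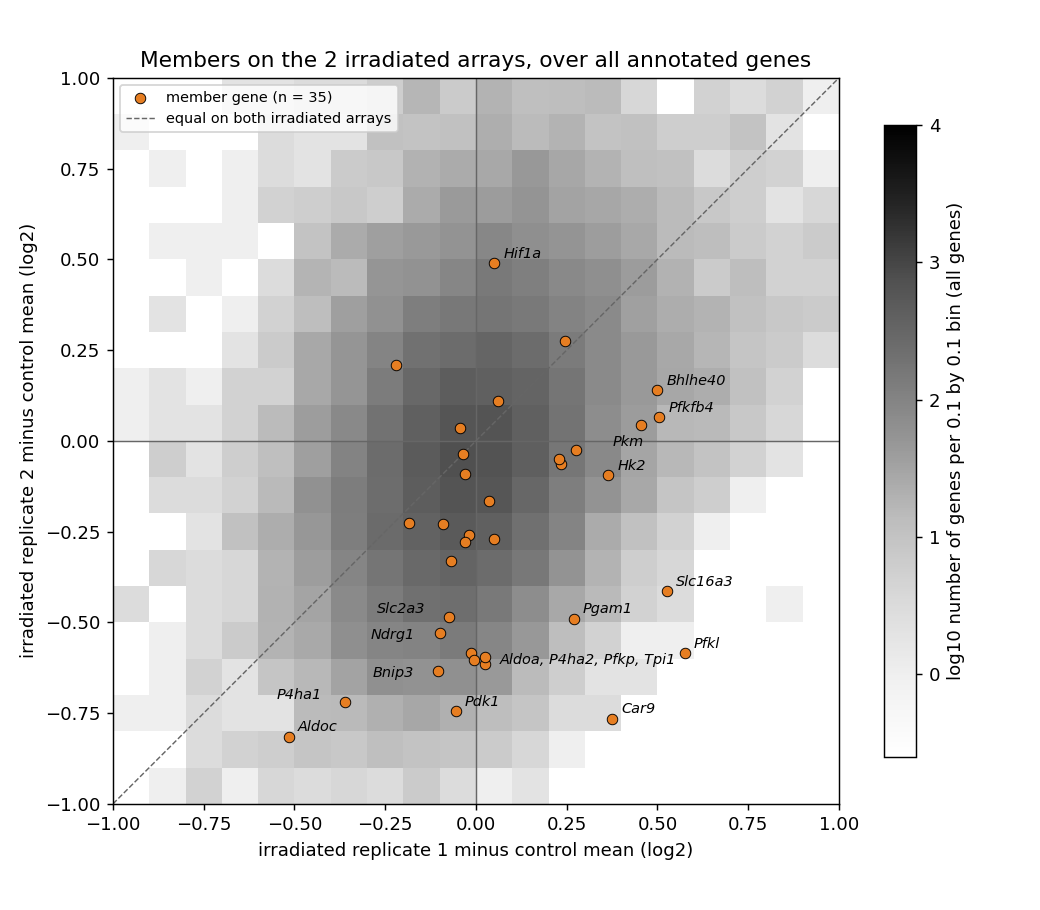
Log2 intensity minus the control mean on irradiated replicate 1 (horizontal) and irradiated replicate 2 (vertical) for the 35 member genes (orange points), over the density of all annotated genes (grey bins, log10 number of genes per bin; genes more than 1 unit from the control mean are not drawn). Most members lie below the dashed line of equality, with Pfkl at 0.575 and −0.585, Car9 at 0.375 and −0.765 and Slc16a3 at 0.525 and −0.415.

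Markers of other cells and states moved between the groups in the same libraries. Of the erythroid list, 10 of 13 symbols were measured by 6 probe sets, since 6 globin symbols share 2. With each probe set counted once, the list averaged 6.025 and 6.003 on irradiated replicates 1 and 2, against 7.49 and 7.50 on control replicates 1 and 2. Of the 6 probe sets, 4 were lower without overlap (both globin sets, Alas2 and Klf1), Slc4a1 was higher without overlap by 0.195, and Epb42 differed by −0.01. Neutrophil markers averaged 5.51 and 5.46 in irradiated cells, against 6.10 and 6.26 in control cells, with 7 of 10 lower without overlap and 1 higher (background 23.5% and 17.8% of all genes). Proliferation markers averaged 11.10 and 10.74 in irradiated cells, against 10.15 and 10.21 in control cells, with 7 of 7 measured higher without overlap (background 17.8%). Macrophage markers averaged 6.60 and 6.47 in irradiated cells, against 6.52 and 6.49 in control cells, general leukocyte markers 7.35 and 7.19 against 7.45 and 7.55, and trophoblast markers 7.25 and 7.46 against 7.07 and 7.12. The label calls the tumour a lymphoma, and the signal of T and B cell markers was dim, with 0 of 7 and 0 of 5 measured above the median level of all genes. Probe affinity was not separated from level here, so this does not settle whether such transcripts were present. T cell markers averaged 5.35 and 5.11 in irradiated cells, against 5.40 and 5.41 in control cells, with 4 of 7 lower without overlap and 1 higher, and B cell markers 5.10 and 5.04 against 4.99 and 5.11. The means of the erythroid, neutrophil, T cell and general leukocyte lists lay below both controls on both irradiated arrays. In the general leukocyte list 4 of 8 were lower without overlap and 1 higher (background 23.5% and 17.8% of all genes). Its largest difference was that of Srgn, at 8.16 and 8.01 in irradiated cells, against 9.29 and 9.89 in control cells. Lcp1 went the other way, at 11.78 and 11.96 in irradiated cells, against 11.19 and 11.30 in control cells. The means of the proliferation and trophoblast lists lay above both controls on both irradiated arrays. The trophoblast list was mixed, with 3 of 8 higher without overlap and 2 lower (background 17.8% and 23.5% of all genes). Its largest difference was that of Prl2c2, at 9.20 and 11.13 in irradiated cells, against 8.39 and 8.37 in control cells. That probe set lists 3 symbols. The macrophage and B cell means did not separate the groups. The part of these cells and states in the members' values was not tested.

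Glucose enters through transporters of the SLC2A family and lactate leaves through the monocarboxylate transporters. Slc2a3, which encodes the high-affinity glucose transporter GLUT3, measured 14.08 and 13.67 on irradiated replicates 1 and 2, against 14.16 and 14.15 on control replicates 1 and 2. Slc2a1, which encodes GLUT1, measured 13.37 and 13.11 in irradiated cells, against 13.45 and 13.43 in control cells. Both were below both controls on each irradiated array, and further below on irradiated replicate 2 (limma log2 differences −0.28 ± 0.17 and −0.20 ± 0.13, SE; adjusted p = 0.624 and 0.652).

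The lactate transporters did not follow them. Slc16a3, which encodes the lactate exporter MCT4 and is a HIF target, measured 10.04 and 9.10 in irradiated cells, against 9.53 and 9.50 in control cells. Its irradiated arrays fell on opposite sides of a control pair that differed by 0.03. Slc16a1, which encodes MCT1, measured 10.84 and 10.87 in irradiated cells, against 10.65 and 10.54 in control cells. It was among the 4 members higher on both irradiated arrays, with a log2 difference of 0.26 (limma adjusted p = 0.552).

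**Figure D3:**
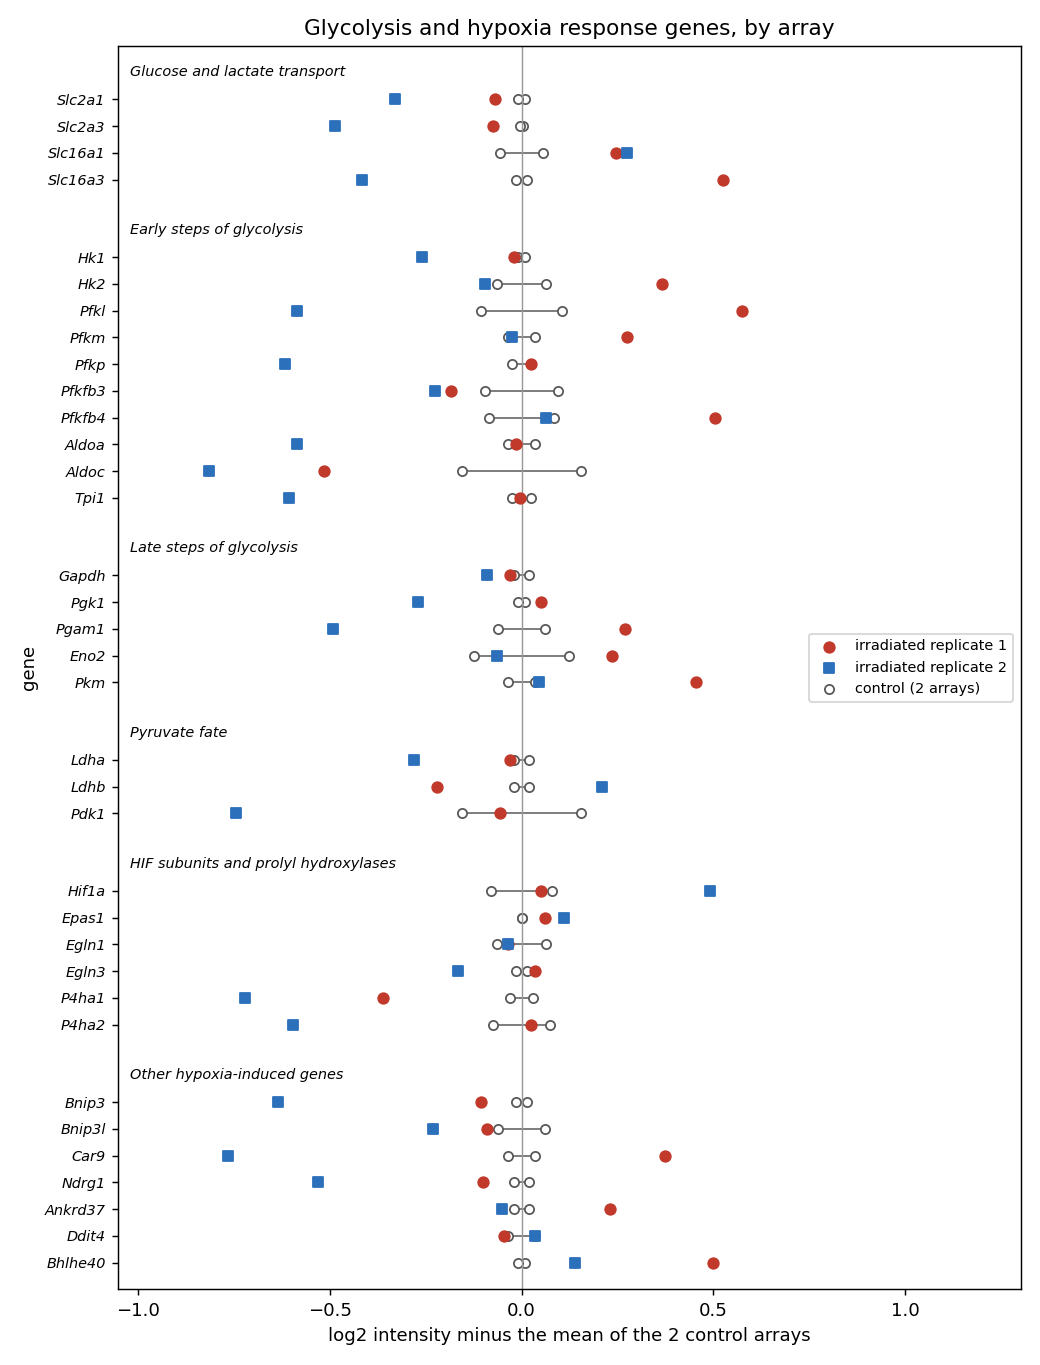
Log2 intensity minus the mean of the 2 control arrays (horizontal axis) for each of the 35 member genes (rows, grouped by role), with irradiated replicate 1 as red circles, irradiated replicate 2 as blue squares and the control arrays as open circles joined by a line. Hk1 is drawn from the brightest probe set that lists Hk1 alone, not the one that lists its RefSeq transcripts. Blue squares sit to the left of red circles in 29 rows, and Aldoc and P4ha1 have both irradiated arrays left of both controls, at −0.36 or lower on the axis.

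The early steps of glycolysis prime glucose with phosphate and split it. Hk2, the inducible hexokinase, measured 10.33 and 9.87 in irradiated cells, against 10.03 and 9.90 in control cells, so that it was high on irradiated replicate 1 and just below the controls on irradiated replicate 2. Hk1, the constitutive hexokinase, measured 10.67 and 10.46 in irradiated cells, against 10.62 and 10.43 in control cells, by the probe set that lists its RefSeq transcripts, a choice made after the values were seen. A further Hk1 probe set, which lists a single accession that the other sets share, measured 13.58 and 13.34 in irradiated cells, against 13.59 and 13.61 in control cells. The 16 other sets that list Hk1 also list Rpl17, a ribosomal protein gene, and had differences from −0.31 to −0.165. All 16 were below both controls on both irradiated arrays (background 23.6% of probe sets), so signal of the ribosomal gene and of Hk1 cannot be told apart there.

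The 3 phosphofructokinase genes, which encode subunits of the enzyme at the main control point, differed among themselves. Pfkl, the liver type, measured 9.98 and 8.82 in irradiated cells, against 9.51 and 9.30 in control cells. Its irradiated arrays lay 1.16 apart, the widest gap of the 35 members, on either side of both controls, and their mean was level with the controls (−0.005). Pfkp, the platelet type, measured 11.06 and 10.42 in irradiated cells, against 11.06 and 11.01 in control cells, and Pfkm, the muscle type, measured 9.75 and 9.45, against 9.51 and 9.44. Pfkp was thus low on irradiated replicate 2 alone and Pfkm high on irradiated replicate 1 alone.

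Pfkfb3 and Pfkfb4 encode bifunctional enzymes that set the level of the activator of phosphofructokinase. Pfkfb3, a HIF target whose product favours making the activator, measured 7.30 and 7.26 in irradiated cells, against 7.58 and 7.39 in control cells. Pfkfb4 measured 8.50 and 8.06 in irradiated cells, against 8.08 and 7.91 in control cells. Pfkfb3 was low on both irradiated arrays by a similar amount, and Pfkfb4 was high on irradiated replicate 1 only.

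The aldolases split the sugar and triosephosphate isomerase interconverts the products. Aldoc, the aldolase best known from brain and a target of HIF, measured 8.20 and 7.90 in irradiated cells, against 8.87 and 8.56 in control cells (means 8.05 ± 0.21 and 8.72 ± 0.22, SD, n = 2 each). It was 1.59-fold lower, with a log2 difference of −0.665 ± 0.17 (SE), an unadjusted p of 0.0114 and a limma adjusted p of 0.453, and it had the largest difference of the 35 members. Leaving out each array in turn, the difference ran from −0.82 to −0.51. Aldoa, the widespread aldolase, measured 13.39 and 12.82 in irradiated cells, against 13.44 and 13.37 in control cells. Tpi1, triosephosphate isomerase, measured 13.51 and 12.91 in irradiated cells, against 13.49 and 13.54 in control cells. Aldoa and Tpi1 were close to the controls on irradiated replicate 1 and stood at −0.585 and −0.605 relative to the control mean on irradiated replicate 2, whereas Aldoc was below the controls on both.

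The late steps yield ATP and end in pyruvate. Gapdh, the dehydrogenase often used as a loading control, was represented by 25 probe sets that all list further symbols, most of them predicted loci, and the brightest measured 14.41 and 14.35 in irradiated cells, against 14.42 and 14.46 in control cells. Over the 25 the differences ran from −0.08 to −0.03, with 11 sets below both controls on both irradiated arrays (background 23.6% of probe sets) and all 25 below both on irradiated replicate 2 (background 45.5%). The 25 hold 20 distinct sets of values, so they are not independent readings. Pgk1, phosphoglycerate kinase, measured 13.50 and 13.18 in irradiated cells, against 13.46 and 13.44 in control cells. The direction on irradiated replicate 2 was the same for both genes, and the size was smaller for Gapdh.

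Pgam1, phosphoglycerate mutase, measured 12.08 and 11.32 in irradiated cells, against 11.75 and 11.87 in control cells, and its 3 probe sets had differences of −0.115 to −0.11. Eno2, the enolase best known from neurons, measured 9.16 and 8.86 in irradiated cells, against 9.05 and 8.80 in control cells. Pkm, pyruvate kinase, measured 12.37 and 11.96 in irradiated cells, against 11.88 and 11.95 in control cells. All of these late-step genes were higher on irradiated replicate 1 than on irradiated replicate 2, and Pgam1 crossed the controls in doing so. Pkm counted as higher without overlap, but irradiated replicate 2 exceeded the higher control by 0.01, and its second probe set measured 12.01 and 11.45 in irradiated cells, against 11.64 and 11.54 in control cells, which overlapped.

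Pyruvate is either reduced to lactate or oxidised in mitochondria. Ldha, the lactate dehydrogenase subunit that HIF induces, measured 13.30 and 13.05 in irradiated cells, against 13.31 and 13.35 in control cells. Ldhb, the subunit typical of heart, measured 5.98 and 6.41 in irradiated cells, against 6.22 and 6.18 in control cells, and its second probe set 5.49 and 5.16, against 5.44 and 5.35. The 2 Ldhb sets disagreed in which irradiated array was the higher, and both lay below the median level of all genes. Pdk1, the kinase that inactivates pyruvate dehydrogenase, measured 9.78 and 9.09 in irradiated cells, against 9.99 and 9.68 in control cells. Relative to the control mean it stood at −0.055 on irradiated replicate 1 and −0.745 on irradiated replicate 2 (limma log2 difference −0.40 ± 0.26, SE; adjusted p = 0.643).

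Of the HIF alpha subunits and their prolyl hydroxylases, Hif1a, Epas1, Egln1 and Egln3 were members. Hif1a, the main oxygen-regulated subunit, which is controlled largely through the stability of its protein, measured 10.96 and 11.40 in irradiated cells, against 10.83 and 10.99 in control cells. Epas1, which encodes the related subunit HIF2 alpha, measured 7.12 and 7.17 in irradiated cells, against 7.06 and 7.06 in control cells. Hif1a was 0.49 above the control mean on irradiated replicate 2, the array on which most members were low, and within the controls on irradiated replicate 1 (limma log2 difference 0.27 ± 0.18, SE; adjusted p = 0.652).

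Egln1, the principal HIF prolyl hydroxylase, measured 9.65 on both irradiated arrays, against 9.62 and 9.75 in control cells. Egln3, a hydroxylase that HIF induces, measured 6.31 and 6.11 in irradiated cells, against 6.26 and 6.29 in control cells. Relative to the control mean neither stood outside −0.165 to 0.035 on an irradiated array. Egln2, another HIF prolyl hydroxylase that belongs to the second list and was added here after its values were seen, measured 9.43 and 8.88 in irradiated cells, against 9.65 and 9.43 in control cells (limma log2 difference −0.385, adjusted p = 0.611). It was low on irradiated replicate 2, so the hydroxylase genes did not share 1 pattern.

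The collagen prolyl hydroxylases are HIF targets that modify collagen in the endoplasmic reticulum. P4ha1, a catalytic subunit, measured 10.48 and 10.12 in irradiated cells, against 10.87 and 10.81 in control cells (means 10.30 ± 0.25 and 10.84 ± 0.04, SD, n = 2 each). It was 1.45-fold lower, with a log2 difference of −0.54 ± 0.16 (SE), an unadjusted p of 0.0177 and a limma adjusted p of 0.491. With each array left out in turn the difference ran from −0.72 to −0.36. P4ha2, the other subunit measured, gave 8.99 and 8.37 in irradiated cells, against 9.04 and 8.89 in control cells. P4ha1 was low on both irradiated arrays, with that of irradiated replicate 2 the lower, and P4ha2 was low on irradiated replicate 2 alone.

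The other hypoxia-induced genes divided in the same ways. Bnip3, a mitophagy receptor of the outer mitochondrial membrane, measured 11.86 and 11.33 in irradiated cells, against 11.95 and 11.98 in control cells. Its second probe set gave 11.02 and 10.22 in irradiated cells, against 10.83 and 11.14 in control cells. Bnip3l, its paralogue, which also clears mitochondria from maturing red cells, measured 12.95 and 12.81 in irradiated cells, against 12.98 and 13.10 in control cells. Ndrg1, a stress gene that hypoxia induces, measured 13.41 and 12.98 in irradiated cells, against 13.53 and 13.49 in control cells. Relative to the control mean these genes stood at −0.105 to −0.09 on irradiated replicate 1 and at −0.635 to −0.23 on irradiated replicate 2, and the second Bnip3 set was within the controls on irradiated replicate 1. Beside Bnip3l, the 2 globin probe sets were low on both irradiated arrays, at 6.12 and 6.45 against 11.01 and 11.21 in control cells and at 6.18 and 5.97 against 9.32 and 9.27, while Slc4a1 was higher and Epb42 level with the controls. The part of red cells in its value was not tested.

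Car9, the surface carbonic anhydrase that helps to control pH around hypoxic cells and a sensitive HIF target, measured 7.95 and 6.81 in irradiated cells, against 7.61 and 7.54 in control cells. Ankrd37, a small ankyrin repeat gene induced by HIF, measured 6.93 and 6.65 in irradiated cells, against 6.68 and 6.72 in control cells. For both, irradiated replicate 1 lay above both controls and irradiated replicate 2 below both. Together with Slc16a3, Hk2, Pfkl, Pgk1, Pgam1 and Egln3 they made 8 of 35 members with that arrangement, 22.9% against 11.3% of all genes, while Ldhb alone had the opposite one (2.86% against 11.4%). For Hk2, Pgk1, Egln3 and Ankrd37 at least 1 of the departures from the nearer control was 0.04 or less.

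Bhlhe40, a transcriptional repressor that hypoxia and many other stresses induce, measured 10.85 and 10.49 in irradiated cells, against 10.36 and 10.34 in control cells. It was higher on both irradiated arrays, with the largest positive difference of the members, 0.32 ± 0.16 (SE; limma adjusted p = 0.576). Ddit4, an inhibitor of mTORC1 signalling that hypoxia, DNA damage and glucocorticoids induce, measured 8.03 and 8.11 in irradiated cells, against 8.11 and 8.04 in control cells. It stayed within 0.045 of the control mean on both irradiated arrays.

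A second list of 62 symbols of glucose metabolism and oxygen sensing outside the 37 members held 55 measured genes. None passed limma at an adjusted p of 0.05, the smallest being 0.374 (background 0.0328% of genes). At an unadjusted p under 0.05, 2 were higher and 4 lower, that is 3.64% and 7.27%, against 4.87% and 4.77% of all genes. The median difference was −0.055 with all arrays, with a median of 0.015 on irradiated replicate 1 and −0.10 on irradiated replicate 2. It was −0.025 without control replicate 1 and −0.05 without control replicate 2, against −0.025 and −0.02 over all genes. On irradiated replicate 2, 34 of the 55 lay below both controls, 61.8% against the background of 45.5%. For 12 of the 55, 21.8%, irradiated replicate 1 lay above both controls and irradiated replicate 2 below both. The same share was 22.9% of members and 11.3% of all genes. Irradiated replicate 1 was the higher irradiated array for 38 of the 55, 69.1%, against 82.9% of members and 52.1% of all genes.

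Adm, which encodes the vasodilator adrenomedullin and is a HIF target, measured 8.21 and 7.37 in irradiated cells, against 9.01 on both control arrays. The difference of −1.22 ± 0.28 (SE; limma adjusted p = 0.445) exceeded that of every member. Angptl4, a lipoprotein lipase inhibitor induced by hypoxia and by PPAR signalling, measured 8.40 and 8.36 in irradiated cells, against 7.82 and 7.69 in control cells. Nos2, the inducible nitric oxide synthase, measured 6.44 and 7.39 in irradiated cells, against 6.08 and 5.65 in control cells. Adm thus lay below the controls and Angptl4 and Nos2 above them on both irradiated arrays (unadjusted p = 0.00737, 0.00272 and 0.0274 in limma, no adjusted p under 0.374).

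Pdha1, the catalytic subunit of pyruvate dehydrogenase that PDK1 phosphorylates, measured 9.85 and 9.47 in irradiated cells, against 10.14 and 10.12 in control cells. Bpgm, which makes the phosphoglycerate that tunes oxygen release in red cells, measured 7.55 and 7.83 in irradiated cells, against 8.24 and 8.00 in control cells. Pck2, the mitochondrial enzyme that makes phosphoenolpyruvate, measured 7.50 and 7.52 in irradiated cells, against 7.87 and 7.74 in control cells. These 3 were low on both irradiated arrays. Beside Bpgm, the erythroid probe sets averaged 6.025 and 6.003 in irradiated cells, against 7.49 and 7.50 in control cells, and the part of red cells in its value was not tested.

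Vegfa, the vascular growth factor that HIF induces, measured 11.00 and 10.92 in irradiated cells, against 11.16 and 11.22 in control cells. Vhl, the ligase subunit that recognises hydroxylated HIF alpha, measured 8.54 and 8.48 in irradiated cells, against 8.71 and 8.82 in control cells. Arnt, the constant partner of the HIF alpha subunits, measured 9.56 and 9.81 in irradiated cells, against 9.94 and 9.96 in control cells. All of these were modestly lower on both irradiated arrays, at −0.39 to −0.14 relative to the control mean, and no adjusted p in limma was under 0.559. G6pdx, which opens the pentose phosphate pathway, was not analysed here.

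**Figure D4:**
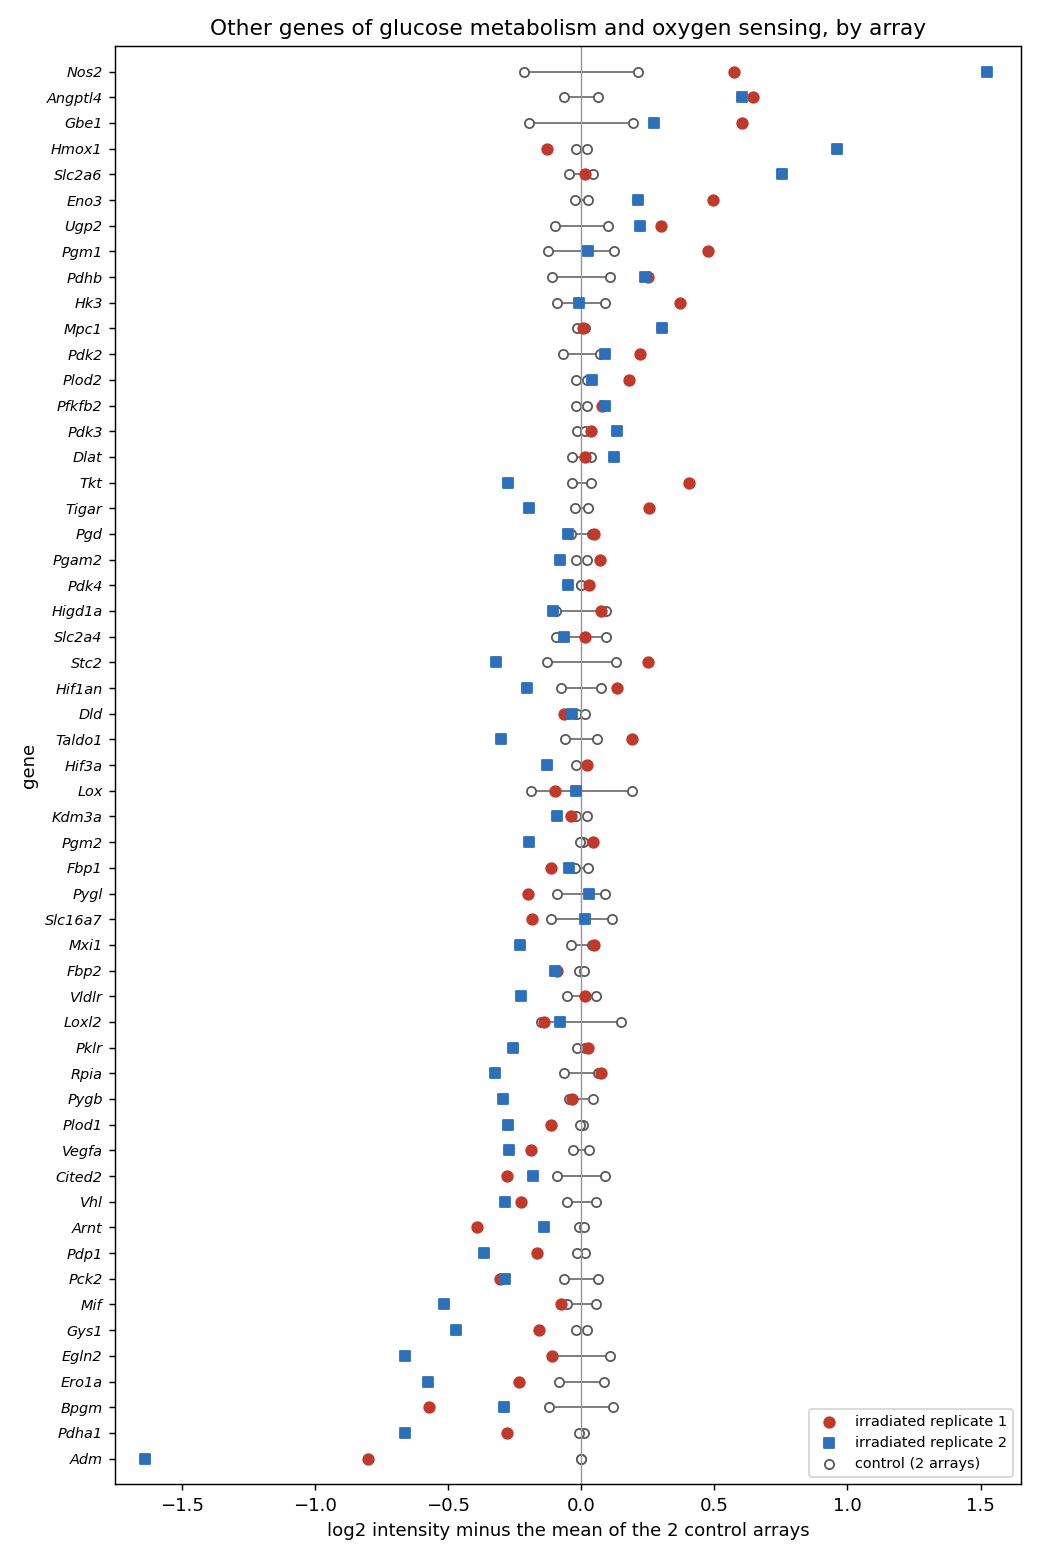
Log2 intensity minus the mean of the 2 control arrays (horizontal axis) for the 55 measured genes of the second list (rows, ordered by the mean difference), with irradiated replicate 1 as red circles, irradiated replicate 2 as blue squares and the control arrays as open circles joined by a line. Adm lies at −0.80 and −1.64, Nos2 at 0.575 and 1.525 and Angptl4 at 0.645 and 0.605 on irradiated replicates 1 and 2.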

How the data were processed

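Total RNA of 4 samples was hybridised to one-colour arrays with biotin label, per the labels' protocols. The deposited values are log2 probe set intensities made by the authors with RMA, per the submitters' processing notes, which name no version. RMA is meant to give the arrays a common intensity distribution. Array values of this kind compress folds at the dim and bright ends. The deposited distributions were not identical, since a further quantile normalization still moved the log2 differences. That of Slc2a1 went from −0.20 to −0.134, that of Ldha from −0.155 to −0.092 and that of Aldoc from −0.665 to −0.681. Scan dates were not used here, and no batch was examined.

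Gene names came from the platform annotation, with symbols updated through RefSeq (GRCm38.p6): 21789 had 1 symbol, 1621 several and 12146 none. The 23410 annotated probe sets were fitted in R 4.3.3 with limma 3.58.1 (lmFit, eBayes, two-sided, Benjamini-Hochberg over all of them). The fit was tested in 5 simulated runs, each with 200 probe sets shifted by more than any member differed here. It therefore does not measure how well differences of the reported sizes are found. Gene counts use 1 probe set per symbol, the brightest with that symbol alone, otherwise the brightest with several. Replicates may share a technical source, and p-values measure the spread between these samples.

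Members and lists were chosen with earlier results of these data known. Every member is given, with all arrays. Of the second list, the rule named up to 8 genes with the smallest unadjusted p under 0.05, and Vegfa, Adm, Vhl, Arnt, G6pdx and Pdha1. Alternatives were other normalizations, dim-probe filters, variance models, probe set choices, a replicate block and each array left out.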

Additional observations from a re-analysis of the deposited data

How the results depend on the processing

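The number of arrays limits these results. No member probe set and no gene of the second list passed an adjusted p of 0.05 in limma under any alternative run, while 2 member probe sets passed an unadjusted p under 0.05 in the fit reported. Member probe sets past an unadjusted p of 0.05 numbered 1 higher with cyclic loess and 1 higher with an eBayes trend, against 0, and 1 lower with a fold of 1.5 added, against 2. Member probe sets lower without overlap numbered 38 of 84 in the fit reported, where the background was 23.6% of probe sets. Of these 38, 16 list Hk1 with Rpl17 and 11 list Gapdh. The count was 32 with quantile normalization, 25 after median centring and 26 with cyclic loess. It was 10 of 34 with 1 single-symbol probe set per gene, which leaves out Gapdh. Those higher numbered 7 of 84 with cyclic loess, against 4. Shares of all probe sets under these alternatives were not counted. The difference of Pfkl turned to 0.02 after median centring and 0.0074 with cyclic loess, and that of Gapdh to 0.015 with cyclic loess. The labels do not say that replicate numbers pair the samples, and the replicate differences of the irradiated and control arrays had r = 0.0 across 23410 probe sets and r = 0.26 across the 84 member probe sets, which are not independent. With the replicate number as a block, 3 genes of the second list passed an unadjusted p of 0.05, against 6.

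With each array left out in turn, the median over member probe sets ran from −0.2275 to −0.0275 and that of the second list from −0.10 to 0.015. Member probe sets past an unadjusted p of 0.05 ran from 0 to 9 higher and from 0 to 39 lower, the 9 without irradiated replicate 2 and the 39 without irradiated replicate 1. Those without overlap ran from 6 to 22 higher and from 40 to 72 lower, and for member genes from 6 to 15 higher and from 13 to 24 lower. In the second list, 1 to 17 genes passed an unadjusted p of 0.05, and 13 to 24 were higher and 20 to 34 lower without overlap. Fewer arrays make an overlap rarer by construction. Each of these fits also leaves 1 array in a group, so its p takes the spread from the other group's pair alone. Shares of all probe sets and genes passing in these fits were not counted. The ranges of counts therefore cannot be set against a background. The direction turned for Slc16a3 (−0.415 to 0.525), Hk2 (−0.095 to 0.365), Pfkl (−0.585 to 0.575), Pfkp (−0.615 to 0.025), Pgam1 (−0.49 to 0.27), P4ha2 (−0.595 to 0.025) and Car9 (−0.765 to 0.375). It turned without irradiated replicate 2 for Pfkl, Pfkp, Pgam1, P4ha2 and Car9, without control replicate 1 for Pfkl, and without irradiated replicate 1 for Slc16a3 and Hk2.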
